A study of Mus musculus with 18 samples.

Results

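The genes described here are 9 genes at the end of the Hippo pathway: the coactivator genes Yap1 and Wwtr1, the transcription factor genes Tead1, Tead2, Tead3 and Tead4, the kinase genes Lats1 and Lats2, and the adaptor gene Amotl2. They were taken by name, with earlier results of these data known, through the accession that each array probe carries, and 13 probes matched them. Of these 9 genes, 8 passed the filter on dim probes and were among the 22844 features tested. Tead4 did not pass. The samples were explants of dorsal root ganglia (DRG, the clusters of sensory neurons beside the spinal cord, with their Schwann cells) from C57BL/6J mouse embryos of embryonic day 13.5. All groups had first spent 12 days on matrigel in growth medium, and no genotype or drug differed between them. The groups were day 0 (before the myelination medium was added), day 10 in that medium (early myelination per the labels) and day 22 (with mature myelin sheaths visible per the labels). Each day had 3 batches of ganglia, each batch coming from its own pool of embryos, and 2 arrays per batch, 18 one-colour arrays in all. Per the labels, a batch number (called a mouse in the sample titles) is shared by the days. The tests below did not pair days by batch, except in the alternatives with a replicate block. The comparisons ask which of these transcripts differ between stages of myelination. All later cultures had the medium, so its effect and that of age in vitro cannot be told apart.

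In the Hippo pathway a kinase cascade ends in LATS1 and LATS2, which phosphorylate the coactivators YAP (from Yap1) and TAZ (from Wwtr1) and so keep them out of the nucleus. Unphosphorylated YAP and TAZ bind the TEAD transcription factors, which hold the DNA contact, and switch on target genes, Amotl2 and Lats2 among them. In Schwann cells, the myelinating glia of peripheral nerve, YAP, TAZ and TEAD1 are known for parts both in proliferation and in the expression of myelin and basal lamina receptor genes. The arrays measured transcript levels only, not phosphorylation or the place of the proteins in the cell.

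A level is the log2 processed intensity of a probe, set relative to its array's 75th percentile, which is 0 on this scale. Levels are compared between days for a probe, not between probes. The array files and the deposited value table put 12 of the 18 arrays in different batches of the same day. A gene was therefore called changed only where the adjusted p (limma, Benjamini-Hochberg over all 22844 features) was under 0.05 with both batch assignments. Each change is given with the larger standard error (SE) and the larger adjusted p of the 2 fits, each on 9 batch values. Per array, 54.8 to 61.5% of spots were well above background and 0 were saturated. The markers fixed for Schwann cells (7 of 7) and neurons (8 of 8) were well above background on all 6 arrays of each day. On the second array filed under batch 1 of day 0, 8 of the 9 genes had their highest level of that day. Without that array the counts of called genes were 1, 1 and 3, as with it.

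The promoter sequences are shown because the TEAD proteins bind a short core motif, so that these genes can be read for the motif of the factors they encode or serve. The motif searched was GGAATG. A match on the opposite strand reads CATTCC in the printed sequence. The sequences are from RefSeq, build GRCm38.p6, and both strands were searched in windows from 250 bases before to 50 bases after a start site. Windows were given for 7 of the 9 genes (Yap1, Wwtr1, Tead2, Tead3, Lats1, Lats2 and Amotl2), and 5 of the 7 held the motif, against 16.6% of all 27025 genes with a window. Tead2 and Lats1 had no match in their windows. Of genes with a window in the lists described below, 3 of 10 in the kinase cascade and 3 of 8 upstream regulators held the motif. So did 3 of 4 other TEAD cofactor genes, 4 of 12 YAP and TAZ targets and 2 of 4 Schwann cell genes. A gene counted where any of its windows held the motif, so genes with more windows had more room for a match. The 2 Schwann cell genes were Egr2, with 5 windows, and Pmp22, with 4, and 1 window of each held it. Tead3 had 3 windows. By single windows, 14.7% of all 32851 held the motif. The Yap1, Wwtr1, Tead2 and Amotl2 sequences are the 250 bases before the start site, 5′ to 3′ on the strand of the gene, with the motif in capitals. Those of Tead3 and Lats2 are 30 bases each, around 2 of the 4 matches of Tead3 and the match of Lats2. The first base of the motif lies 141 bases before the start in Yap1, 136 before it in Wwtr1 (170 before its second listed start), 65 before it in Amotl2, and at base 5 after the start in Lats2. Tead3 had a match 182 bases before its first listed start, and for its second start at 123 and 114 bases before it and at base 3 after it. The printed stretch holds those at 123 and 114, both on the opposite strand. A match describes the letters of a window and is no evidence of binding in these cultures.
Yap1, chr9:8004597-8004846, minus strand: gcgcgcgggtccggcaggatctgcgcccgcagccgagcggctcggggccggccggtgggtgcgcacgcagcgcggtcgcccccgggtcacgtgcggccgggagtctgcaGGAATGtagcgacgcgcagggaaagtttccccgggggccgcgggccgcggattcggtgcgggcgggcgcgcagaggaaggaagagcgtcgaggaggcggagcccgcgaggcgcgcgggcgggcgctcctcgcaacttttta
Wwtr1, chr3:57575911-57576160, minus strand: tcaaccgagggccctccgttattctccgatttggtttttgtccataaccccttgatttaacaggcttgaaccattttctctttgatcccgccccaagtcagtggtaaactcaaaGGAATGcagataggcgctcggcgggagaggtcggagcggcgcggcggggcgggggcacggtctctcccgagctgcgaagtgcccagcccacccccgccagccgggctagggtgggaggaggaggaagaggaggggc
Tead2, chr7:45215542-45215791, plus strand, no motif: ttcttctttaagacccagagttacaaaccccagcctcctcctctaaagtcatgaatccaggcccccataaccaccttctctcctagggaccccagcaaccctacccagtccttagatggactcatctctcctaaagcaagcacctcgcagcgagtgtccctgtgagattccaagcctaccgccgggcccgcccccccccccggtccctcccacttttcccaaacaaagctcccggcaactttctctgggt
Tead3, chr17:28350701-28350730, minus strand: ccgggctCATTCCgtaCATTCCggccatcc
Amotl2, chr9:102717554-102717803, plus strand: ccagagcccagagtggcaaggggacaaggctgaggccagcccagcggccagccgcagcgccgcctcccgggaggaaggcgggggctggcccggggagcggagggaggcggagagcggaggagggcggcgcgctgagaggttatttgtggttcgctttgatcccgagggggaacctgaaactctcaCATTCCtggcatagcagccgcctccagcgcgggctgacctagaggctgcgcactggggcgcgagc
Lats2, chr14:57746102-57746131, minus strand: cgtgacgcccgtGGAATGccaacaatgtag

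Of the 8 genes tested, Tead2, Wwtr1 and Tead3 were lower on day 22 than on day 0, and none was higher. Tead2 fell in both intervals, while Yap1 was not called in any comparison. On day 10 against day 0, 0 of 8 genes were called higher, where 5.74% of all features were, and 1 was called lower (Tead2), where 7.72% were. On day 22 against day 10, 0 were called higher, against 0.477% of all features, and 1 lower (again Tead2), against 1.43%. On day 22 against day 0, 0 were called higher, against 12.6%, and 3 lower, against 18.6%. At an unadjusted p under 0.05 with both batch assignments, 0 genes were higher in each comparison, and 5, 1 and 6 were lower. The median log2 change of the 8 genes was -0.37, -0.09 and -0.44, beside -0.06, -0.02 and -0.08 over all features. In these bulk samples fewer cells of a type and less RNA per cell cannot be told apart. The 3 comparisons share day samples, so they are not separate evidence.

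**Figure D1:**
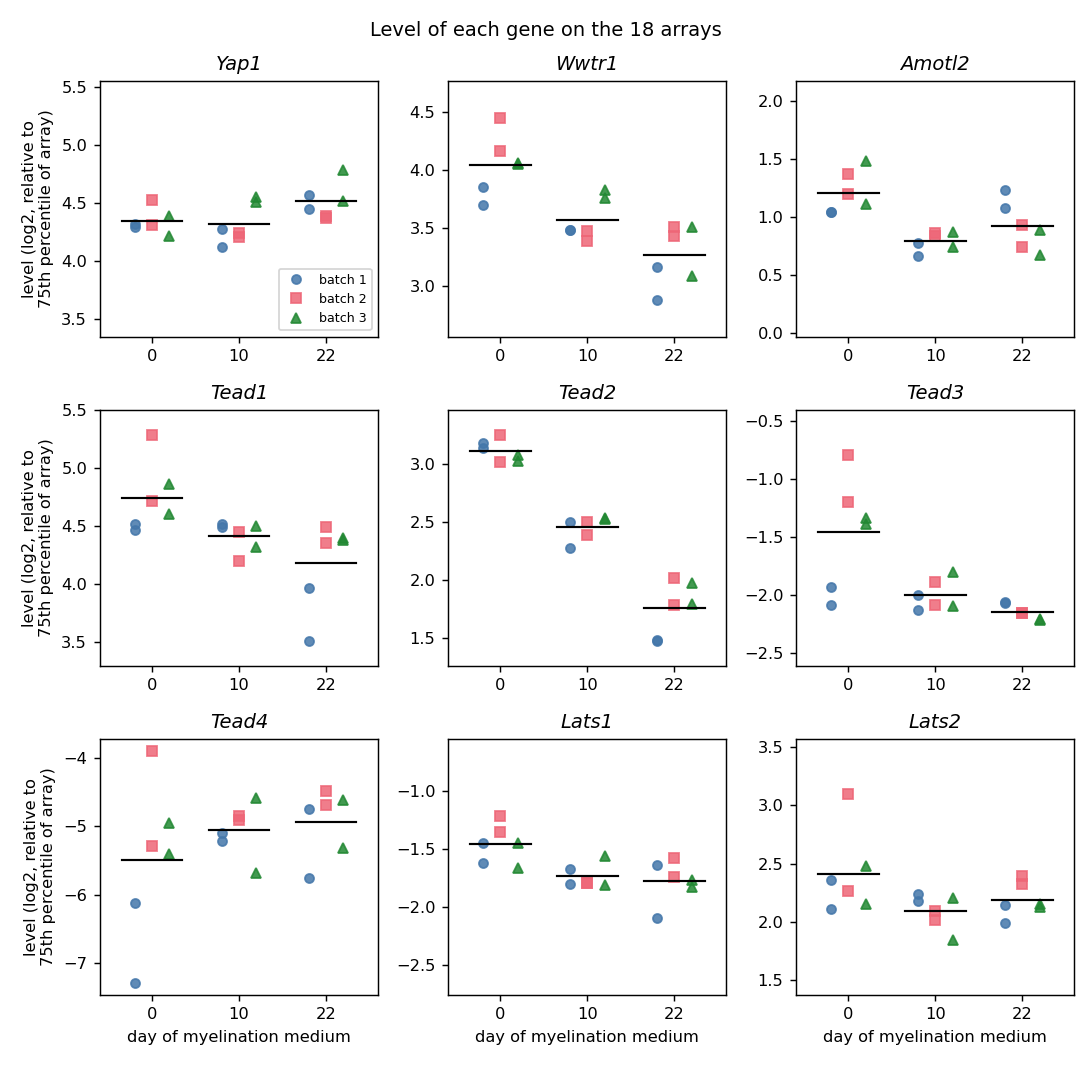
Level of each of the 9 genes (y axis, log2, with 0 at the array's 75th percentile, each panel with its own range) by day in myelination medium (x axis), 1 point per array, with marks for the batch given by the deposited value table and a line at the mean of 6 arrays. The arrays of the 3 days lie apart for Tead2 (3.02 to 3.25, 2.28 to 2.54 and 1.48 to 2.02), those of Yap1 overlap, and Tead4 failed the minimum for detection.

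Yap1 encodes the coactivator YAP. Its level on day 0 was 4.22 at the lowest of 6 arrays, 4.31 at the median and 4.53 at the highest. On day 10 it was 4.12, 4.26 and 4.55, and on day 22 it was 4.37, 4.48 and 4.78. The arrays of all 3 days overlap. The log2 change was -0.02 ± 0.12 (SE) over the first interval (adjusted p = 0.906), 0.19 ± 0.12 over the second (adjusted p = 0.425) and 0.17 ± 0.12 over both (adjusted p = 0.298). The 95% interval of the last change ran from -0.1 to 0.44, so a rise of that size could not be told from no change. The sign of the first change turned under some settings.

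Wwtr1 encodes TAZ, the other coactivator. Its level on day 0 ranged from 3.70 to 4.45 with a median of 4.05, on day 10 from 3.39 to 3.83 with a median of 3.48, and on day 22 from 2.88 to 3.51 with a median of 3.30. Every array of day 22 lies below every array of day 0, and the arrays of day 10 overlap both. By the value table's batches day 22 stood at 3.02, 3.47 and 3.3. Wwtr1 fell by 0.78 ± 0.17 (SE) on the log2 scale over the 22 days, which is 1.72-fold (95% interval -1.18 to -0.38, adjusted p = 0.0117). The changes over the shorter intervals, -0.47 (adjusted p = 0.105) and -0.31 (adjusted p = 0.4), did not pass the test. The array slides held 8 arrays of all 3 days on slide 1 and as many on slide 2, and within each the change of Wwtr1 from day 0 to day 22 was -0.91 (adjusted p = 0.0512) and -0.63 (adjusted p = 0.0799). With the slide as a block it was -0.78 (adjusted p = 0.00164).

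Yap1 and Wwtr1 were set against each other within each array, since the coactivators share partners and kinases. The log2 ratio of Yap1 to Wwtr1 was higher by 0.45 ± 0.12 (SE) on day 10 than on day 0, by 0.5 ± 0.17 on day 22 than on day 10, and by 0.95 ± 0.21 on day 22 than on day 0. The ratios of the 3 batches of one day did not overlap those of another, with either batch assignment. The two-sided exact permutation test gave p = 0.1 in each case, the smallest that 3 batches against 3 can give (0.2 after Benjamini-Hochberg adjustment over 12 tests of 4 pairs, the larger value of the 2 assignments). So this test, with 3 batches a day, could not place the difference past the threshold whatever its size. The ratio was put to no other test.

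**Figure D2:**
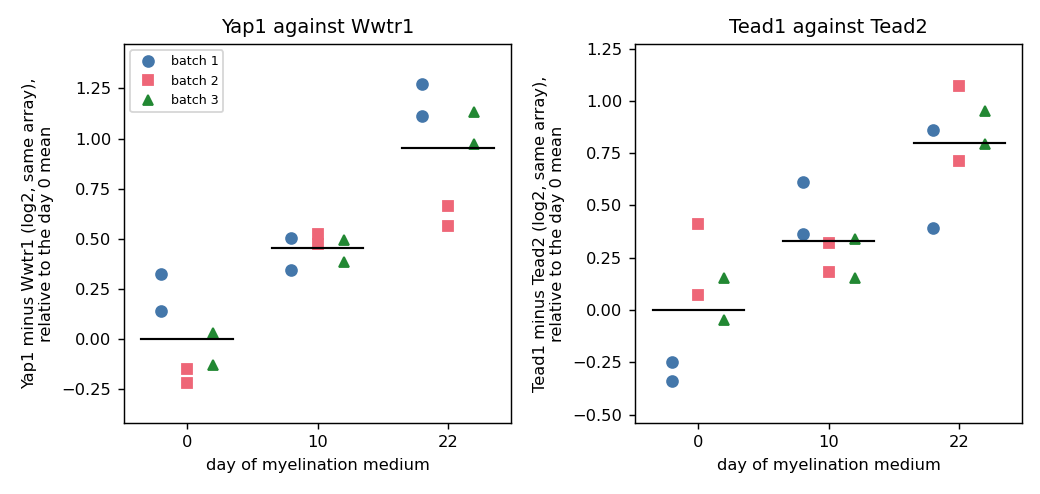
Difference in log2 level between Yap1 and Wwtr1 (left) and between Tead1 and Tead2 (right) on the same array (y axis, relative to the mean of day 0), by day in myelination medium (x axis), 1 point per array with marks for the value table's batches and a line at the mean. The day means lie higher at each later day, by 0.45 and then 0.5 for Yap1 against Wwtr1, and by 0.33 and then 0.47 for Tead1 against Tead2.

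Tead2, a TEAD gene known from the early embryo and its neural tissue, had the largest change of the 8 genes tested in each comparison. Its level was 3.02, 3.11 and 3.25 on day 0 (lowest, median and highest of 6 arrays), 2.28, 2.50 and 2.54 on day 10, and 1.48, 1.79 and 2.02 on day 22. The arrays of the 3 days form a descending series without overlap. Its mean by batch, as the value table assigns batches, was 3.12 ± 0.05 (SD, n = 3), then 2.45 ± 0.07, then 1.76 ± 0.24, with batch 1 of day 22 at 1.49 and the others at 1.9 and 1.89.

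Over the 22 days Tead2 fell by 1.35 ± 0.12 (SE) on the log2 scale, 2.56-fold (95% interval -1.64 to -1.07, adjusted p = 0.000264). That call held in all 27 alternative settings, within slide 1 (-1.36, adjusted p = 0.0218) and within slide 2 (-1.35, adjusted p = 0.00836) among them. It fell by 0.66 ± 0.12 by day 10 (adjusted p = 0.0142) and by a further 0.69 ± 0.12 by day 22 (adjusted p = 0.0342). The call for the first interval was lost without batch 1 or batch 3 of day 10 (adjusted p = 0.0531 and 0.051). The call for the second was lost without any single batch other than batch 1 of day 22 (changes of -0.75 to -0.66, adjusted p of 0.0507 to 0.132 where lost). Within slide 1 the 2 changes were -0.69 (adjusted p = 0.0798) and -0.67 (adjusted p = 0.166), and within slide 2 they were -0.6 (adjusted p = 0.0686) and -0.75 (adjusted p = 0.221). A dimmer second Tead2 probe was also lower in each comparison, with changes of -0.63, -0.76 and -1.39 (± 0.14 each). Its adjusted p values were 0.0258, 0.0391 and 0.000393.

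Tead1 encodes the TEAD factor that is best known in Schwann cells. Its brightest probe ranged from 4.47 to 5.29 on day 0 (median 4.66), from 4.20 to 4.52 on day 10 (median 4.47) and from 3.51 to 4.49 on day 22 (median 4.37). The arrays of the 3 days overlap. The changes were -0.33, -0.23 and -0.56 (± 0.2 each), and none was called (adjusted p = 0.297, 0.601 and 0.0651). By the value table's batches, batch 1 of day 22 stood at 3.74 and the others at 4.42 and 4.39. That batch also differed in cell type markers, at 4.74 for Sox10 of Schwann cells (others 5.33 and 5.45). For Csf1r of macrophages it stood at 6.42 (others 4.96 and 4.57). Not all markers of these cell types went the same way, such as Cdh19 (2.16, others 1.64 and 2.03) and Itgam (4.28, others 5.38 and 5.82). The other 2 probes of Tead1 were dimmer, and their changes from day 0 to day 22 were -0.75 ± 0.25 (adjusted p = 0.0521) and -0.94 ± 0.23 (adjusted p = 0.0172), so 1 of 3 probes was called lower. With the mean over probes in place of the brightest, Tead1 was also called lower from day 0 to day 22 (-0.75, adjusted p = 0.0341). The same held without batch 1 of day 0 (adjusted p = 0.0443). On the same arrays, the log2 ratio of Tead1 to Tead2 was higher by 0.33 ± 0.18, 0.47 ± 0.14 and 0.8 ± 0.18 in the 3 comparisons, without overlap of the batches under either assignment (exact permutation p = 0.1 each, the smallest possible, and 0.2 after adjustment).

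Tead3, better known from placenta and other tissues outside the nervous system, had levels of -2.09 to -0.80 on day 0 (median -1.36), -2.13 to -1.80 by day 10 (median -2.05) and -2.22 to -2.06 on day 22 (median -2.16). The arrays of day 0 spread over the widest range and overlap those of the later days at their lower end. By the value table's batches day 0 stood at -2.01, -1 and -1.36. Tead3 fell by 0.69 ± 0.22 on the log2 scale between days 0 and 22, 1.61-fold (95% interval -1.19 to -0.18, adjusted p = 0.0444). That call was lost in 13 of 27 alternative settings and without any single batch other than batch 1 of day 0 (changes of -0.81 to -0.6, adjusted p of 0.0647 to 0.119 where lost). Without the array of day 0 that held 8 of the 9 highest levels, the change was -0.5 (adjusted p = 0.0376). The ratio of Tead1 to Tead3 on the same arrays differed by 0.21 ± 0.17 over the first interval (exact permutation p = 0.3), by -0.09 ± 0.27 over the second (p = 1) and by 0.13 ± 0.3 over both (p = 0.8). The batches overlapped in each with the value table's assignment, and in the last 2 with that of the array files.

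Tead4, a TEAD gene known from the trophectoderm and from muscle, was well above background on 3, 4 and 4 of the 6 arrays of days 0, 10 and 22. Its level ranged from -7.30 to -3.89 on day 0, from -5.68 to -4.58 on day 10 and from -5.75 to -4.48 on day 22. The widest spread was again on day 0. With no filter on dim probes its changes were 0.44, 0.12 and 0.56 (± 0.48 each), with adjusted p values of 0.632, 0.937 and 0.43. A planned ratio of Tead1 to Tead4 was not computed, since Tead4 did not pass the filter.

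**Figure D3:**
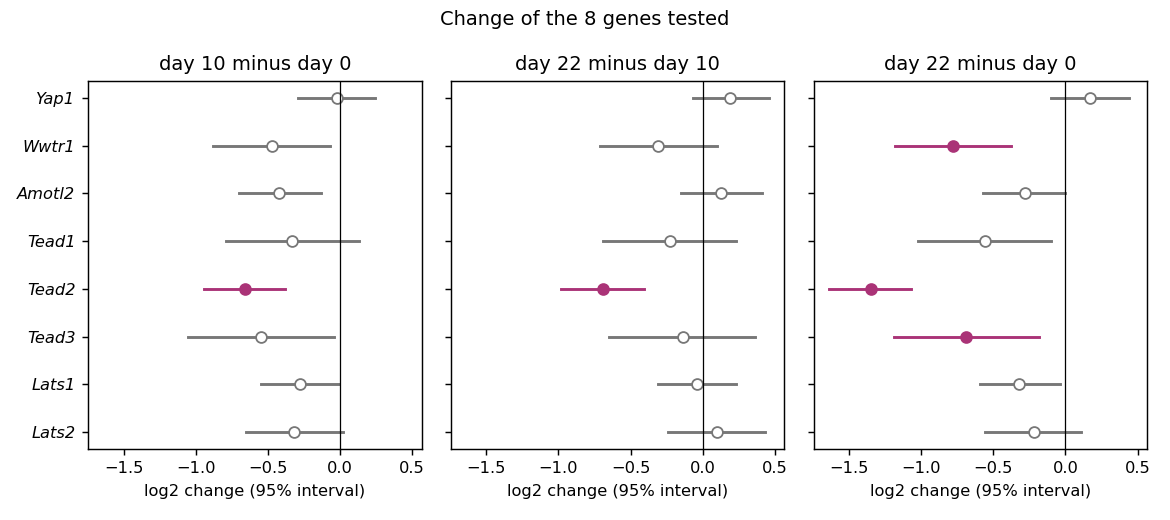
Log2 change of the 8 genes tested (x axis) in the 3 comparisons of days (panels), with the 95% interval as a bar and filled points for genes called with both batch assignments. Tead2 is the gene called in all 3 panels, Wwtr1 and Tead3 are called from day 0 to day 22, and Yap1 sits on both sides of 0.

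Lats1 and Lats2 encode the kinases that phosphorylate YAP and TAZ. Lats1 ranged from -1.66 to -1.22 on day 0 (median -1.45), from -1.81 to -1.56 on day 10 (median -1.79) and from -2.09 to -1.58 on day 22 (median -1.76). Lats2, which is also a target of YAP and TAZ, ranged from 2.11 to 3.10 (median 2.31), from 1.84 to 2.24 (median 2.13) and from 1.99 to 2.39 (median 2.15). The arrays of the days overlap for both genes, and the day 0 array at 3.10 stood apart from the next highest, at 2.48. By day 22 Lats1 had changed by -0.32 ± 0.12 (adjusted p = 0.0594, or 0.0458 with the value table's batches alone). Lats2 changed by -0.22 ± 0.15 (adjusted p = 0.253), and neither gene was called in any comparison. By day 10 the changes were -0.28 ± 0.12 (adjusted p = 0.116) and -0.32 ± 0.15 (adjusted p = 0.158). A second Lats2 probe gave -0.24, -0.08 and -0.32 (± 0.24 each). The ratio of Lats1 to Lats2 on the same arrays changed by 0.04 ± 0.15, -0.14 ± 0.08 and -0.09 ± 0.14 (exact permutation p = 0.9, 0.3 and 0.7).

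Amotl2 encodes an angiomotin family adaptor that binds YAP at cell junctions and is itself a target gene of YAP and TAZ. Its level was 1.04 to 1.48 on day 0 (median 1.16), 0.66 to 0.87 on day 10 (median 0.81) and 0.67 to 1.23 on day 22 (median 0.91). All 6 arrays of day 10 lie below all 6 of day 0, and those of day 22 overlap both. The change from day 0 to day 10, -0.42 ± 0.12 (95% interval -0.7 to -0.13), had an adjusted p of 0.0597 and was not called, and with the batches of the array files alone its adjusted p was 0.0162. It was called without batch 1 of day 0 or without batch 1 of day 22. The later change was 0.13 ± 0.12 (adjusted p = 0.627), and that over the whole period was -0.28 ± 0.12 (adjusted p = 0.112).

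Of 12 genes for the kinases and scaffolds upstream of LATS, all tested, limma called 0 over either shorter interval and 1, lower, over the whole period. Over all features the shares called were 5.74% higher and 7.72% lower, then 0.477% and 1.43%, and 12.6% and 18.6% over the whole period. At an unadjusted p under 0.05, 0, 0 and 1 were higher and 3, 0 and 1 were lower. The gene called was Wwc1 (KIBRA, a scaffold that promotes LATS activation), with a median level of -1.27 on day 0, -1.98 on day 10 and -2.43 on day 22. It fell by 0.92 ± 0.26 on the log2 scale, 1.89-fold (adjusted p = 0.0266), although batch 1 of day 22 stood at -1.56 and the others at -2.47 and -2.57. The Wwc1 call was lost without batch 2 or 3 of day 0 or of day 22 (adjusted p of 0.0599 to 0.0852). The MST kinase genes Stk3 and Stk4 changed from day 0 to day 22 by 0.09 ± 0.1 and 0.15 ± 0.13. Their partner Sav1 changed by 0.02 ± 0.14, and the scaffold gene Nf2 (merlin) by 0.06 ± 0.12. Adjusted p values for these were 0.513, 0.416, 0.943 and 0.72. The median change of the list was -0.09, 0.09 and -0.05 in the 3 comparisons, beside -0.06, -0.02 and -0.08 over all features.

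Of 10 genes for upstream regulators (such as Fat4) or for adaptors that hold YAP at junctions (such as Amot and Ptpn14), 9 were tested. Limma called 0 in each comparison, where 5.74% of all features were higher and 7.72% lower, then 0.477% and 1.43%, and 12.6% and 18.6%. The median change was -0.15, 0.03 and -0.19, beside -0.06, -0.02 and -0.08 over all features. At an unadjusted p under 0.05, 1 was lower on day 10 and 1 on day 22 than on day 0. Their changes ran from -0.88 to 0.14 by day 10 and from -0.38 to 0.4 by day 22. Frmd6 did not pass the filter, with 5, 0 and 1 of 6 arrays well above background.

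Of the 4 other cofactor genes of the TEAD factors, the Vgll (vestigial-like) genes, Vgll3 and Vgll4 were tested. Both were lower on day 10 and on day 22 than on day 0, where 7.72% and 18.6% of all features were. Vgll1 and Vgll2 did not pass the filter, with 0 or 1 array of a day well above background. Vgll3 had levels of -1.59 to -0.72 on day 0 (median -1.12), -2.71 to -2 on day 10 (median -2.41) and -2.85 to -2.42 on day 22 (median -2.79). Every array of the later days lies below every array of day 0. Vgll3 fell by 1.2 ± 0.2 by day 10 (adjusted p = 0.0106) and by 1.53 ± 0.2 by day 22, 2.89-fold (adjusted p = 0.00121). The first Vgll3 call was lost without batch 3 of day 10 (adjusted p = 0.0506). Vgll4 competes with YAP for the TEAD factors. It had medians of 0.92, 0.37 and 0.28. Its arrays ran from 0.64 to 1.32 on day 0, from 0.21 to 0.67 on day 10 and from 0.10 to 0.51 on day 22. Those of day 10 overlap day 0, and those of day 22 do not. Relative to day 0, Vgll4 fell by 0.53 ± 0.11 by day 10 (adjusted p = 0.0178) and by 0.64 ± 0.11 by day 22 (adjusted p = 0.00333). The call of Vgll4 on day 10 was lost without batch 2 of day 0 or any batch of day 10 (adjusted p of 0.0524 to 0.0657). Between days 10 and 22, limma called 0 of the 2, also at an unadjusted p under 0.05.

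**Figure D4:**
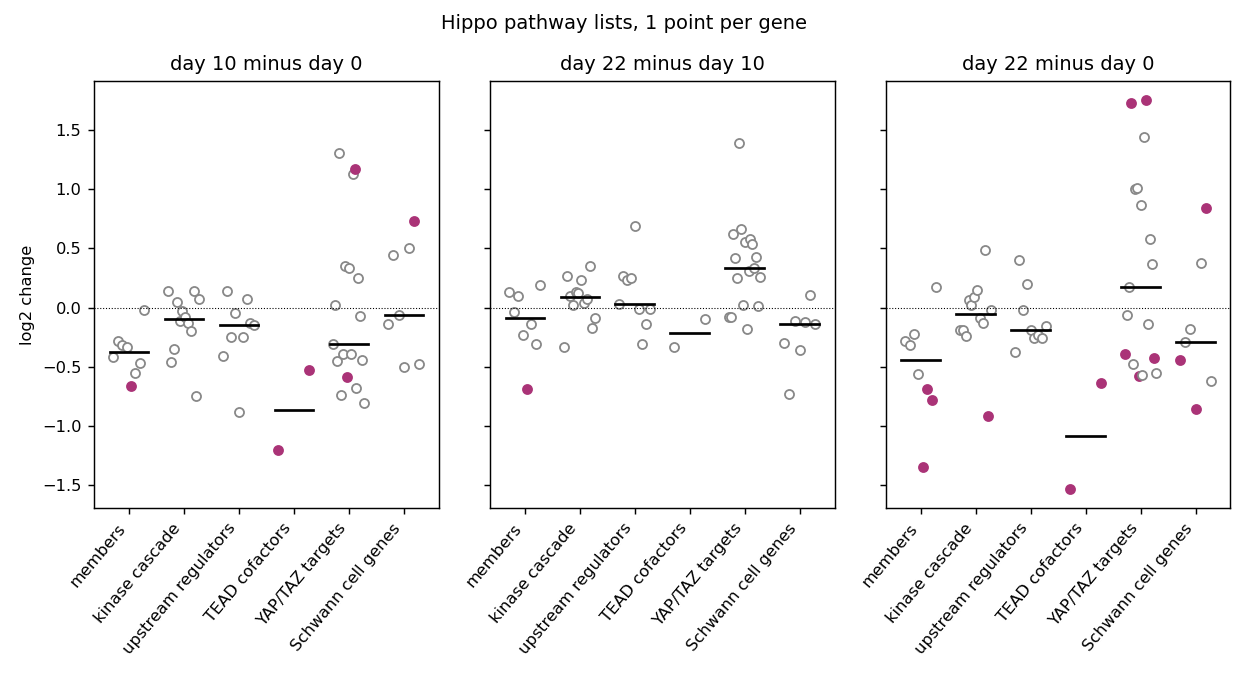
Log2 change (y axis) of the genes described here and of the pathway lists (x axis) in the 3 comparisons, 1 point per gene, filled where called with both batch assignments and with a line at the median of the list. The 2 TEAD cofactors tested lie at -1.53 and -0.64 from day 0 to day 22, while the YAP/TAZ targets spread from -0.58 to 1.75 around a median of 0.17.

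Of 19 target genes taken from a widely used YAP and TAZ signature, 17 were tested. Amotl2, Lats2 and Ptpn14 (listed above with the adaptors) were not among the 19. Limma called 1 higher and 1 lower by day 10, 0 between days 10 and 22, and 2 higher and 3 lower by day 22. Over all features 5.74% were higher and 7.72% lower, then 0.477% and 1.43%, and 12.6% and 18.6%, so by day 22 the counts of targets lay near the shares of all features. At an unadjusted p under 0.05, 2, 3 and 5 were higher and 5, 0 and 4 were lower. The median change was -0.31, then 0.33, and 0.17 over the whole period, beside -0.06, -0.02 and -0.08 over all features, and 7, 14 and 9 of the 17 changes were above 0.

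Gadd45a, a stress-induced growth arrest gene, had levels of 0.15 to 1.38 on day 0, 1.80 to 2.64 on day 10 and 2.30 to 3.39 on day 22. Its arrays of day 0 lie below all later ones. It rose by 1.75 ± 0.3 from day 0 to day 22, 3.36-fold (adjusted p = 0.00395). Its rise of 1.17 ± 0.3 from day 0 to day 10 (adjusted p = 0.0408) was lost without 6 of the 9 batches in turn, all but batch 1 of day 0 and batches 1 and 3 of day 22 (adjusted p of 0.0534 to 0.111). Ccdc80, which encodes an extracellular matrix protein, had medians of 0.79, 2.04 and 2.39, and rose by 1.73 ± 0.47 from day 0 to day 22 (adjusted p = 0.0236), a call lost without batch 2 or 3 of day 0 (adjusted p = 0.057 to 0.0763). Dock5, an exchange factor for Rac, ranged from 3.51 to 3.94 on day 0 and from 2.97 to 3.33 on day 22. It fell by 0.59 ± 0.1 by day 10 (adjusted p = 0.00918) and by 0.58 ± 0.1 by day 22 (adjusted p = 0.00319).

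Rbms3 (an RNA-binding protein) and Arhgef17 (a guanine nucleotide exchange factor) fell by 0.43 ± 0.14 (adjusted p = 0.0479) and 0.39 ± 0.11 (adjusted p = 0.0306) from day 0 to day 22. Rbms3 lost its call without 7 of the 9 batches in turn, all but batch 2 of day 0 and batch 3 of day 22. Arhgef17 lost it without 6, all but batches 1 and 3 of day 10 and batch 3 of day 22. Arhgef17, the remaining target called, was named after its values were seen, so that all called targets are given.

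Ccn1 (Cyr61) and Ccn2 (Ctgf) encode the matricellular proteins most often read as YAP targets, and neither was called. Ccn1 ranged from 1.40 to 3.94 on day 0, from 0.90 to 2.62 on day 10 and from 0.86 to 2.84 on day 22, and changed by -0.74 ± 0.61, 0.25 ± 0.61 and -0.48 ± 0.61. Ccn2 ranged from 1.43 to 4.03, from 1.80 to 3.30 and from 2.67 to 4.71, and changed by -0.39 ± 0.52, 1.39 ± 0.52 (adjusted p = 0.208) and 1 ± 0.52 (adjusted p = 0.17). The batches of day 0 differed by more than the days did. By the value table's batches, day 0 stood at 3.81, 2.17 and 1.45 for Ccn1 and at 3.97, 3.23 and 1.83 for Ccn2. For Ccn2 the batches stood at 2.32, 3.06 and 2.49 on day 10 and at 4.47, 4.12 and 3.44 on day 22. The Ccn2 batches of days 10 and 22 did not overlap with either batch assignment, while their single arrays did. Ankrd1, another frequently used target, did not pass the filter. It was well above background on 0, 2 and 5 of 6 arrays of the 3 days, with median levels of -7.86, -6.98 and -3.74.

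Among 7 Schwann cell genes that earlier work tied to YAP, TAZ or TEAD1, limma called 1 higher and 0 lower by day 10. Between days 10 and 22 it called 0, also at an unadjusted p under 0.05, and by day 22, 1 was higher and 2 lower than on day 0. The shares over all features were 5.74% and 7.72% by day 10, 0.477% and 1.43% between days 10 and 22, and 12.6% and 18.6% by day 22. The median change of the 7 genes was -0.06, -0.14 and -0.29, beside -0.06, -0.02 and -0.08 over all features. Pmp22, a compact myelin protein gene, ranged from 6.40 to 6.94 on day 0 and from 7.21 to 7.56 on day 10, with no overlap. On day 22 it ranged from 6.90 to 7.76, which overlaps day 0. It rose by 0.73 ± 0.16 by day 10 (adjusted p = 0.0123) and by 0.84 ± 0.16 by day 22, 1.79-fold (adjusted p = 0.00298). The first Pmp22 call was lost without batch 3 of day 10 (adjusted p = 0.0567). Itga6, an integrin subunit gene, ranged from 7.08 to 7.66 on day 0 and from 6.21 to 6.92 on day 22. It fell by 0.86 ± 0.16 (adjusted p = 0.00593). Dag1, the dystroglycan gene, fell by 0.44 ± 0.15 (adjusted p = 0.044), a call that was lost without any single batch (adjusted p of 0.0568 to 0.134). Egr2 (Krox20), the main transcription factor gene of myelinating Schwann cells, changed by 0.44 ± 0.65, -0.73 ± 0.65 and -0.29 ± 0.65 and was not called. Its day 0 batches stood at 4.7, 3.03 and 2.51.

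Some other marker lists moved with the same days. Over all features, 5.74% were called higher and 7.72% lower by day 10, then 0.477% and 1.43% between days 10 and 22. By day 22 against day 0 the shares were 12.6% and 18.6%. Of 8 markers of dividing cells, 7 were tested, and 0 were higher while 6, 7 and 7 were lower in the 3 comparisons, with medians of -1.26, -1.99 and -3.24. Their summed level is on a linear scale where 1 is the 75th percentile. It ran from 43.8 to 57.5 on day 0, from 15.8 to 24.7 on day 10 and from 2.57 to 8.35 on day 22. The medians of Tead2, Wwtr1, Tead1 and Tead3 fell in the same order of days. On day 22 Aurkb was well above background on 0 arrays. Of 7 macrophage markers, 0 were called over the shorter intervals (3 and 3 higher at an unadjusted p under 0.05), and 5 were higher on day 22 than on day 0. Their summed level ran from 60 to 76.4, from 81.8 to 99.7 and from 81.9 to 182. Itgam, the brightest of the 7 on day 0 (median level 5.83), weighs most in that sum. Relative to day 0, Itgam changed by 0 on day 10 and by -0.67 ± 0.34 on day 22 (adjusted p = 0.165). The other 6 changes by day 22 were above 0, up to 3.44, and the median of the 7 was 2.7. The summed levels of the Schwann cell markers overlapped between days (346 to 471, 405 to 508 and 307 to 525), with 1 of 7 called lower on day 10 and on day 22 against day 0. The neuronal sums also overlapped (198 to 358, 284 to 380 and 203 to 355), with 1 of 8 lower on day 22 than on day 0. The fibroblast sums overlapped too (501 to 819, 553 to 785 and 465 to 810), with 2 of 7 higher and 2 lower on day 22 than on day 0. Endothelial sums were 11.9 to 18.2, 13.9 to 17.9 and 12.9 to 16.8, with Tek on 0 arrays well above background on days 10 and 22 and 1 of 4 tested lower on day 22 than on day 0. By day 22 the counts of 1 lower among Schwann cell, neuronal and endothelial markers lay near the share of all features, 18.6%. The part of all the marker lists above in the changes of Tead2, Wwtr1, Tead3 and the other genes was not tested.

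For Yap1, Wwtr1, Tead1 and Amotl2, the genes with the most similar pattern were taken as those with the highest Pearson correlation over the 18 arrays, among 14504 other named genes. All points share the 3 days and the scaling of their array, so these correlations are a description. For Yap1 they were Zcchc24 (r = 0.877), Ptpn11 (0.859) and Itpripl2 (0.851). For Wwtr1 they were Arl2bp (r = 0.941), Dab1 (0.94) and Gnptab (0.94), and for Tead1 they were Cttn (r = 0.966), Ptrh2 (0.948) and again Gnptab (0.943). For Amotl2 they were Afap1 (r = 0.922), Rhog (0.914) and Med15 (0.912).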

How the data were processed

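Spot intensity was read by the authors in Agilent Feature Extraction, version 10.7.1.1 per the file headers and 10.7.1 in the submitters' processing notes. The deposited array files also hold other columns, 0 or 1 flags of the same software for spots well above background, saturated or outlying, per the file headers. A deposited value table holds linear intensity with 1 median (33.7) in all 18 columns. Its processing is not given in the sources used here. All of its columns matched 1 array file each (Spearman correlation at least 0.999977, at most 0.975 with any other), and for 12 columns that file was filed under another sample of the same day.

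Values are log2 processed intensity less each array's 75th percentile, without control spots and spots marked as outliers (93 to 181 per array), averaged over spots of a probe. A probe had to be well above background on the 6 arrays of 1 day or more, as were 30419 of 55681. Accessions were named through a RefSeq table of GRCm38.p6, which differs from the array's build, so it gave no gene positions. The brightest probe stood for a gene. Arrays that share batch and day (2) were averaged. The model had day as group and was fitted by lmFit and eBayes of limma 3.58.1 in R 4.3.3 (with the data.table package at 1.17.8), once per batch assignment. The fit was tested on simulated data. Per the labels, a replicate number marks a batch of ganglia shared by the days. Same-numbered samples deviated from their day means with correlations of -0.13 to 0.37 (6 of 9 pairs above 0.1), and of -0.08 to 0.46 (8 of 9) with the value table's batches. Precision is limited by 3 batches a day.

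The genes, the lists and the tests were chosen with earlier results of these data known. Named were the 9 genes, in each list up to 4 called genes with the largest change, a fixed set (Stk3, Stk4, Sav1, Nf2, Vgll4, Ccn1, Ccn2, Ankrd1, Egr2), and the 3 nearest patterns of 4 genes. Alternatives were other batch assignments, a replicate block, technical arrays, scaling, background correction, filters, probes, slides and single batches left out.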

Additional observations from a re-analysis of the deposited data

Results flagged for a closer look

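Among 27 groups of 6 arrays (9 genes on 3 days), 1 held a value that stood apart by Dixon's test at the 95% level. Lats2 on day 0 had a level of 3.1 on the second array filed under batch 1, and the next highest array stood at 2.48. The gap was 0.627 of the range of the group. Chance alone marks about 1 in 20 such groups. The same array held the highest level of day 0 for 8 of the 9 genes, and without it Lats2 changed by -0.2 ± 0.1 from day 0 to day 10 (adjusted p = 0.266) and by -0.1 ± 0.1 from day 0 to day 22 (adjusted p = 0.561).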

How the results depend on the processing

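With 1, 1 and 3 genes called lower (day 10 against day 0, day 22 against day 10, day 22 against day 0), the counts were 4, 1 and 5 with the batches of the array files alone, and 4, 1 and 5 with the 18 arrays and an estimated correlation within batches. They were 0, 0 and 2 on the first technical arrays alone, 1, 0 and 2 on the second, and 1, 0 and 2 with no filter on dim probes. They were 2, 1 and 4 with normexp on the median signal (chosen after seeing the data, since the files hold no mean signal and the planned normexp was not run), and 2, 1 and 4 with the slide as a block. Within slide 1, and within slide 2, they were 0, 0 and 1. With single batches left out the counts ran from 0 to 3, from 0 to 1 and from 2 to 4. With the replicate block the paired counts were 1, 1 and 3, and the block changed no call of these genes. The authors' value table gave 1, 1 and 3.

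Over 27 settings, 583 of the changes of single genes kept their direction and their side of the threshold, 22 came to pass it, 33 no longer did and 10 turned sign, none of these called. Yap1 from day 0 to day 10 (-0.02) was 0.02 on the first technical arrays, 0.05 with the median of the array as scale, 0.04 within slide 1, 0.01 without 1 array of day 0, and -0.07 to 0.05 with single batches left out. Lats1 from day 10 to day 22 (-0.04) was 0.07 within slide 1 and -0.12 to 0.05 with single batches left out. Lats2 from day 0 to day 22 was 0.06 within slide 2. The ratio of Tead1 to Tead3 from day 0 to day 22 (0.13) was -0.06 with the mean over probes. The cause was not tested. Wwtr1 from day 0 to day 22 lost its call in 2 settings, the single slides. Tead4 failed the minimum for detection, and the pair tests could not fall below 0.1 with 3 batches a day.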
